A study of Mus musculus with 9 samples.

Results

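The EGR factors and their NAB corepressors were represented here by 5 genes, Egr1, Egr2, Egr3, Nab1 and Nab2, which were taken by symbol from a table of 24594 genes in 9 RNA-seq libraries of mouse thymocytes. All 5 were among the 11569 genes with an RPKM (reads per kilobase of exon, scaled to the reads of the library) not below 1 in 2 or more libraries, so each was tested. EGR factors are zinc finger transcription factors whose genes are switched on within minutes of T cell receptor engagement, through ERK kinases, the serum response factor SRF and its ternary complex partners. NAB1 and NAB2 bind a repression domain shared by EGR1, EGR2 and EGR3, recruit the NuRD chromatin remodelling complex and restrain the activity of these factors, and Nab2 is itself a known EGR target gene. In the thymus, EGR factors take part in positive selection, and in peripheral T cells Egr2 and Egr3 are linked to anergy.

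The cells were OT-II thymocytes, whose transgenic receptor is specific for a peptide of ovalbumin, and were sorted as CD4+ CD8- CD69+ Valpha2+ Vbeta5+ cells. They came from mixed chimeras, which were lethally irradiated hosts given OT-II marrow, OT-II marrow lacking Nr4a1 and Nr4a3 in the germline (double knockout, DKO) and a larger share of non-transgenic wild-type marrow, and reconstituted for 4.7 weeks. Wild-type (WT) hosts were BoyJ mice per the labels, whereas the methods of the study describe WT F1 mice of the cross that also gave the RIPmOVA hosts. With BoyJ hosts, the antigen and the host strain cannot be told apart. RIPmOVA hosts were F1 mice with a BoyJ parent and carried Tg(Ins2-TFRC/OVA)296Wehi/WehiJ on C57BL/6, which places membrane ovalbumin under the rat insulin promoter and makes it a self-antigen of the thymic medulla. Donors of OT-II cells were Nr4a1+/+ Nr4a3+/+ F1 mice of B6.Cg-Tg(TcraTcrb)425Cbn/J and BoyJ, whereas DKO donors were Nr4a1-/- Nr4a3-/- on C57BL/6, so that genotype and donor background cannot be told apart. There were n = 2 libraries of OT-II cells and n = 3 of DKO cells from WT hosts, and n = 2 of each from RIPmOVA hosts. Host ages are not given in the sources used here.

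Libraries held 15520682 to 25054073 reads. Neither targeted gene was lower in the DKO libraries at the level of whole genes. In WT hosts Nr4a1 was at 73.4 ± 17.9 RPKM in OT-II cells (SD, n = 2) and at 76 ± 14.3 RPKM in DKO cells (SD, n = 3). The values of RIPmOVA hosts were 245 ± 21.9 and 258 ± 33.5 RPKM (SD, n = 2 each). Nr4a3 was called higher in DKO than in OT-II libraries of RIPmOVA hosts, and gene totals do not show whether a transcript lacks the deleted part. Libraries are therefore named DKO-labelled below, and every direction between genotypes rests on that label. All 8 markers of CD4 single-positive thymocytes were at 1 RPKM or more in every library. The summed level of 4 Treg markers was 4.56 to 15.3 RPKM in WT hosts and 35.6 to 51.8 RPKM in RIPmOVA hosts, and that of 7 dendritic cell and macrophage markers was 10 to 25.8 and 29 to 60 RPKM. At least 1 RPKM in all libraries of a group was reached by 1 or 2 of the Treg markers in WT hosts and 3 or 4 in RIPmOVA hosts, and by 1 to 3 of the others. In RIPmOVA hosts the lineage marker Foxp3 was at 1.90 and 3.31 RPKM in OT-II and at 0.092 and 0.077 RPKM in DKO-labelled libraries. Ctla4 made up 11.7 to 23.2 RPKM of the Treg sum there, and Cd74 24.2 to 39 RPKM of the dendritic cell and macrophage sum. Of 5 thymic epithelial markers 1, Epcam, was at 1 RPKM or more in all libraries of a group. Their summed level was 2.68 to 6.93 RPKM in the 7 other libraries and 8 to 11.7 RPKM in the 2 DKO-labelled libraries of RIPmOVA hosts, of which Epcam made up 5.78 and 10.2 RPKM, while the keratin gene Krt5 was at 0 to 0.166 RPKM over all libraries. None of these markers was at 0 in all libraries of a group, and their part in the results below was not tested. In bulk samples, fewer cells of a type and less RNA per cell cannot be told apart. Reads on olfactory, vomeronasal and taste receptor genes, which thymocytes are not known to use, were at 295 to 1141 RPM (reads scaled to library depth, without length) in the 7 other libraries and 1047 and 1491 in the 2 DKO-labelled libraries of RIPmOVA hosts.

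In GRCm38, Egr2 lies at chr10:67535475-67542188 on the plus strand, Egr3 at chr14:70077203-70082614 (plus), Nab1 at chr1:52457294-52500679 (minus) and Nab2 at chr10:127660918-127668568 (minus). RefSeq promoter windows (GRCm38.p6) are given here for 3 of the 5 members, Egr2, Nab1 and Nab2. Those of Egr1 and Egr3 were left out, so nothing can be said here of sites before their starts. For the 3 genes given, the 250 bases before the start site are shown. They serve to mark any letters that SRF, CREB or EGR factors are known to read in 1 EGR gene and both corepressor genes. Capitals mark these matches. In Egr2 they are the CArG box read by SRF, which begins 72 bases before the start, and GACGTCA, the reverse of the cyclic AMP response element TGACGTC, 57 bases before it. In Nab1 they are the EGR site GCGTGGGCG, found in reverse at 141 and forward at 109 bases before the start, and the related GCGGGGGCG at 38 bases before it. The Egr2 window is 1 of 5 for that gene and was chosen because it holds this CArG box, whereas Nab1 and Nab2 had 1 window each. Among the other Egr2 windows, that at chr10:67535249-67535548 held no match. That at chr10:67537316-67537615 held a different CArG box and no cyclic AMP response element. A difference between the genes can therefore not be read from the windows shown.
Egr2, chr10:67537619-67537868, plus strand: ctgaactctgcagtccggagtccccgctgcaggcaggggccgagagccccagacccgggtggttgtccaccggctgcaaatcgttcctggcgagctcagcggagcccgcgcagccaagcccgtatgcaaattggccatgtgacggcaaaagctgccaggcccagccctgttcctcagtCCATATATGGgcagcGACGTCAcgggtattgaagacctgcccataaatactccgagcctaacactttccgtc
Nab1, chr1:52500449-52500698, minus strand: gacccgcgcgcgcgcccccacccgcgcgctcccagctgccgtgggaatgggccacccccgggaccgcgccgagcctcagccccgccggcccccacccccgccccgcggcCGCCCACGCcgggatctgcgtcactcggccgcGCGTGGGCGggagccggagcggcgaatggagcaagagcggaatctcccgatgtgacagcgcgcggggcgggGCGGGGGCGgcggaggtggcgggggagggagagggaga
Nab2, chr10:127666704-127666953, minus strand: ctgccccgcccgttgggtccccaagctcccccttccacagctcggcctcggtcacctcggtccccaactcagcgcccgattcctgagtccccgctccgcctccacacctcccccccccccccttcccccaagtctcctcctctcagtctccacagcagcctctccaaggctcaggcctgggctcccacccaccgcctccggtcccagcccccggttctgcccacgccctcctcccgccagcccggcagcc
Among all 32851 promoter windows of 300 bases, searched on both strands, 0.612% held GCGTGGGCG, 2.91% GCGGGGGCG, 3.21% TGACGTC and 1.63% a CArG box. The Nab2 window held no exact match to these letters, and near matches were not searched. It lies within the bounds of Nab2 given above, so the bases before the outermost start of that gene were not searched. The Egr2 window shown also lies within the bounds of its gene. That of Nab1 lies mostly within the bounds of Nab1, as do all its marked sites. Marked sites thus precede the start site of their window, not the outermost start of the gene.

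Egr1, Egr2 and both NAB genes were abundant in all 9 libraries, and Egr3 was low. On the scale of RPKM per the exon length used by the authors, the mean level over the 9 libraries was 80.4 RPKM for Egr1, 65.8 for Nab2, 36.4 for Egr2, 29 for Nab1 and 3.82 for Egr3. Egr1 stood above 97% of the genes tested, Nab2 above 96%, Egr2 above 90.4%, Nab1 above 86.8% and Egr3 above 36%. The order Egr1, Nab2, Egr2, Nab1, Egr3 held in 8 of 9 libraries. In the other one, DKO-labelled WT-host replicate 1, Nab2 (73.4 RPKM) lay above Egr1 (71.1 RPKM), and the ranges of these neighbours in the order overlapped in both groups of WT hosts and in neither group of RIPmOVA hosts. Egr2 and Nab1 overlapped only in DKO-labelled cells from WT hosts, and by little. The exon length in the table counts overlapping exons of different transcripts more than once, and is 1.68 times the merged exon length for Egr1 and 1.35 times for Egr3. Per merged exon length the same order held in all 9 libraries. Over the libraries the coefficient of variation was 11% for Egr2, 11.8% for Egr1, 14.4% for Nab2, 14.8% for Nab1 and 40.1% for Egr3. The read numbers behind these values were 2072 to 16481 per library for the 4 abundant members and 125 to 734 for Egr3.

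**Figure D1:**
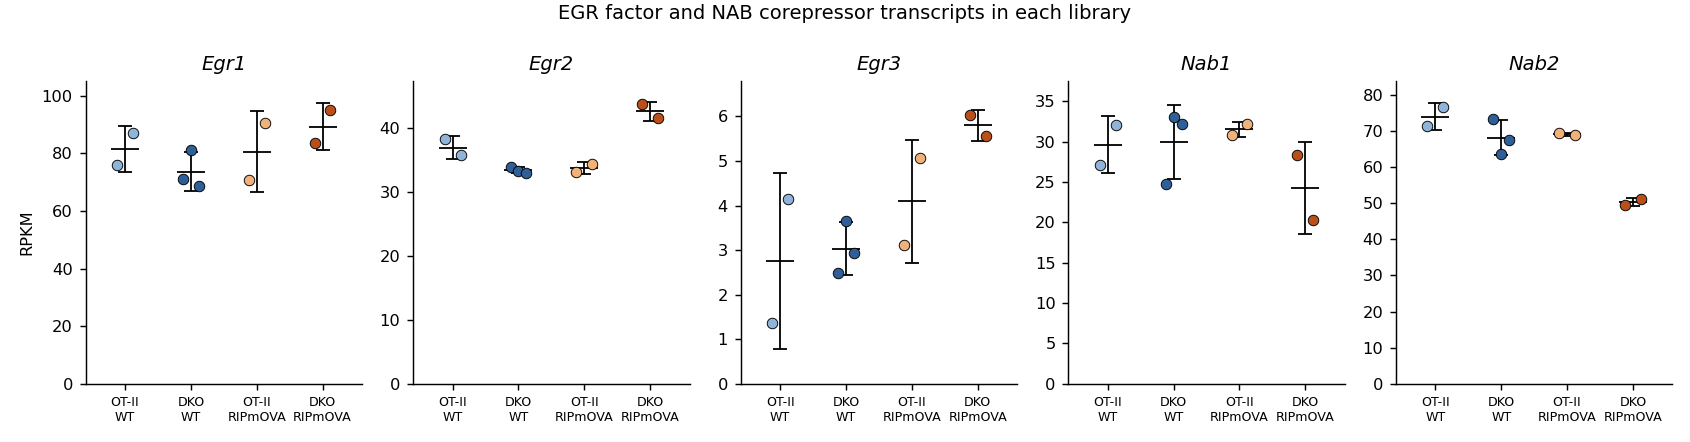
RPKM of the 5 members in each library (points) by donor genotype and host, with the group mean and SD (horizontal and vertical lines) and each y axis starting at 0. The 2 DKO-labelled libraries of RIPmOVA hosts were the highest of the 9 for Egr2, at 41.7 and 43.8 RPKM, and the lowest for Nab2, at 49.7 and 51.1 RPKM. The share of all genes that set these 2 libraries apart from all the others is not given here.

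The first question was whether EGR and NAB transcripts differed between OT-II cells that met ovalbumin and those that did not. In OT-II control cells no member passed the test for a host effect, whereas 1.23% of all genes tested were called. A call needed both an adjusted p not above 0.05 and a log2 fold change of 1 or more in either direction. With limma, 0 of 5 members were called, 0 had an unadjusted p under 0.05 (14.3% of all genes), 0 passed by the adjusted p alone (1.89% of all genes), and voom on the recovered reads called 0. The median log2 fold change of the members was -0.02, as was that of all genes tested.

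Egr1 (chr18:34859823-34864984 in GRCm38, plus strand), the founding member of the family and an immediate-early gene in many cell types, was at 75.8 and 87.1 RPKM in the OT-II libraries of WT hosts and at 70.7 and 90.5 RPKM in those of RIPmOVA hosts. The RIPmOVA values enclosed those of the WT hosts. The log2 fold change was -0.02 ± 0.14 (SE), with a 95% confidence interval of -0.34 to 0.30 and an adjusted p of 0.96 in limma. Egr2, which is known for roles in NKT cell development and T cell anergy, was at 38.3 and 35.8 RPKM without the antigen and at 33.1 and 34.4 RPKM with it. The 2 libraries with antigen were the lower ones without overlap, a separation that 41.6% of all genes showed in one direction or the other. Its log2 fold change was -0.13 ± 0.08 (SE), with an interval of -0.32 to 0.06 (limma adjusted p = 0.53). These intervals leave out any rise of Egr1 beyond 1.23-fold and of Egr2 beyond 1.04-fold on the scale of log2(RPKM + 0.5).

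Egr3, which is known to act redundantly with Egr2, was the least certain member. Its level was 1.36 and 4.14 RPKM in OT-II libraries of WT hosts and 3.12 and 5.07 RPKM in those of RIPmOVA hosts, so that the hosts overlapped. The lowest value rested on 125 reads, with an exact 95% Poisson interval of 1.13 to 1.62 RPKM that covers counting error only, and the other library of that group on 567 reads (3.8 to 4.49 RPKM). The log2 fold change between hosts was 0.62 ± 0.38 (SE), with an interval of -0.24 to 1.47 (limma adjusted p = 0.52). Without the first OT-II library of WT hosts it was -0.05 (adjusted p = 0.99), and without the second it was 1.28 and passed the test (adjusted p = 0.041), so that 1 library decided this value.

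The corepressors of OT-II cells differed little between hosts. Nab1 was at 27.1 and 32.1 RPKM in WT hosts and at 30.8 and 32.2 RPKM in RIPmOVA hosts, with a log2 fold change of 0.09 ± 0.18 (SE; interval -0.32 to 0.51, limma adjusted p = 0.85). Nab2 was at 71.4 and 76.7 RPKM in WT hosts and at 69.5 and 68.9 RPKM in RIPmOVA hosts. Both RIPmOVA libraries lay just below the others, and the log2 fold change was -0.10 ± 0.09 (SE; interval -0.30 to 0.11, limma adjusted p = 0.69). For 4 of the 5 members, all but Egr3, the interval of the host effect in OT-II cells left out a change of 2-fold in either direction.

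**Figure D2:**
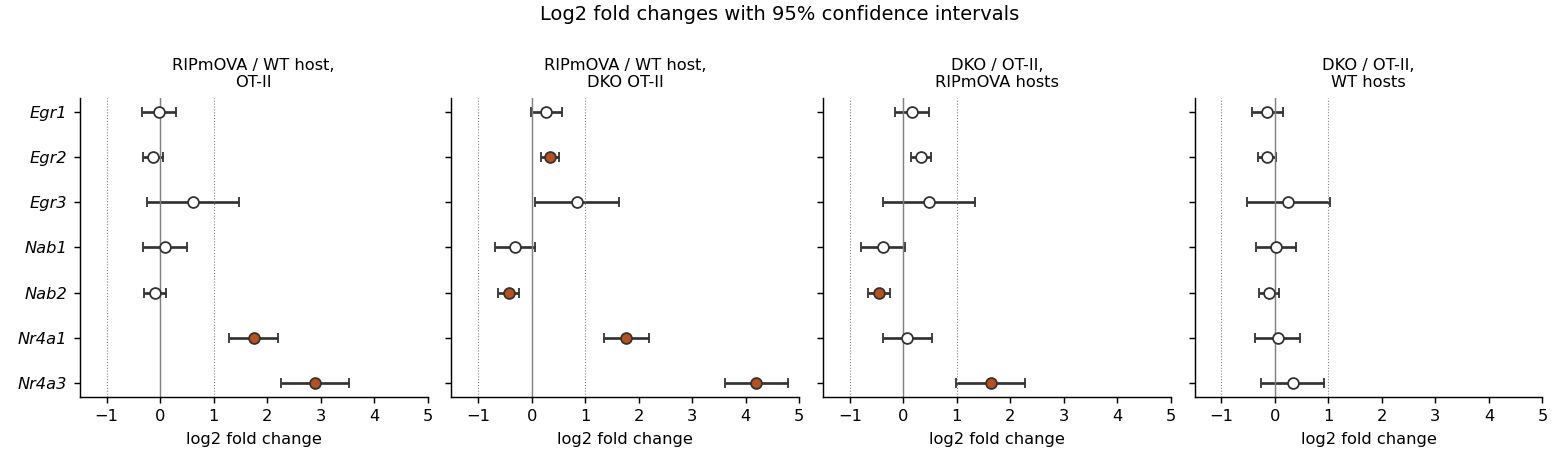
Log2 fold changes of the members, and of Nr4a1 and Nr4a3 for scale, with 95% confidence intervals (bars) in 4 comparisons. Filled circles have an adjusted p of 0.05 or less in limma, and dotted lines mark log2 fold changes of -1 and 1. No member reached both limits, whereas Nr4a1 rose by 1.75 and Nr4a3 by 2.90 with the antigen in OT-II cells.

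In DKO-labelled cells, the libraries of RIPmOVA hosts had more Egr2 and less Nab2 than those of WT hosts. Both had an adjusted p below 0.05 in limma, though neither change reached the limit of 1 on the log2 scale, and so 0 of 5 members were called where 1.68% of all genes were. At the adjusted p alone, 2 of 5 members passed, against 3.35% of all genes. Unadjusted, 3 members had a p under 0.05, against 17.6% of all genes. Voom called 0, and 2 by the adjusted p alone. The median log2 fold change of the members was 0.28, and that of all genes 0.03.

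Egr2 was at 34, 33.3 and 33.1 RPKM in the 3 DKO-labelled libraries of WT hosts and at 43.8 and 41.7 RPKM in the 2 of RIPmOVA hosts. The groups did not overlap, which held for 40% of all genes, and the gap was wide beside the spread within each group (SD 0.499 and 1.48 RPKM). The log2 fold change was 0.35 ± 0.08 (SE), a 1.27-fold difference with an interval of 1.13 to 1.43 (limma adjusted p = 0.043). Nab2 was at 73.4, 63.6 and 67.6 RPKM without the antigen and at 49.7 and 51.1 RPKM with it. The RIPmOVA libraries lay below all the others, and Nab2 fell by 0.43 on the log2 scale (SE 0.08), to 0.742-fold with an interval of 0.651 to 0.845 (limma adjusted p = 0.026). Over 23 alternatives the adjusted p ranged from 0.024 to 0.48 for Egr2 and from 0.023 to 0.26 for Nab2, and the directions held in each of them. It was not above 0.05 in 11 of the 23 for Egr2 and in 12 for Nab2. These counts include the main fit called by the adjusted p alone.

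The remaining members of DKO-labelled cells did not pass the test. Egr1 was at 71.1, 81.3 and 68.6 RPKM in WT hosts and at 83.4 and 95.2 RPKM in RIPmOVA hosts, without overlap, and its log2 fold change was 0.28 ± 0.13 (SE; limma adjusted p = 0.31). Egr3 was at 2.49, 3.66 and 2.93 RPKM in WT hosts and at 6.04 and 5.55 RPKM in RIPmOVA hosts, again without overlap. Its log2 fold change of 0.85 ± 0.35 (SE) had a limma adjusted p of 0.25, with an interval from 0.07 to 1.63. Nab1 was at 24.8, 33.1 and 32.2 RPKM in WT hosts and at 28.4 and 20.3 RPKM in RIPmOVA hosts, which overlapped, and the log2 difference was -0.30 ± 0.17 (SE; adjusted p = 0.36 in limma). The 3 EGR genes were thus each higher without overlap in DKO-labelled libraries with the antigen, where 22.7% of all genes were.

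Comparing genotypes within RIPmOVA hosts asked whether cells labelled DKO differed from OT-II cells after meeting the antigen. Of the 5 members 0 were called, where 1.07% of all genes were, and Nab2 alone had an adjusted p of 0.05 or less, as did 2.21% of all genes. At an unadjusted p under 0.05 there were 2 members, against 21.4% of all genes, and voom called 0. Nab2 was at 49.7 and 51.1 RPKM in DKO-labelled and 69.5 and 68.9 RPKM in OT-II libraries. It fell by 0.45 on the log2 scale (SE 0.09), to 0.731-fold with an interval of 0.633 to 0.843 (limma adjusted p = 0.041). With the chimera as a replicate block, which pairs cells from the same animal, the difference was again -0.45 and its adjusted p 0.096. Over 22 alternatives the adjusted p ranged from 0.025 to 0.53, with the same direction in each, and it was not above 0.05 in 11 of them.

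Egr2 was at 43.8 and 41.7 RPKM in DKO-labelled and 33.1 and 34.4 RPKM in OT-II libraries of RIPmOVA hosts, without overlap, as were 59% of all genes. The log2 fold change of 0.33 ± 0.08 (SE) missed the threshold in limma (adjusted p = 0.075). Egr1, at 83.4 and 95.2 against 70.7 and 90.5 RPKM, overlapped between genotypes (log2 fold change 0.15 ± 0.14 SE, limma adjusted p = 0.56). Egr3, at 6.04 and 5.55 against 3.12 and 5.07 RPKM, did not overlap, with a log2 difference of 0.49 ± 0.38 (SE; adjusted p = 0.48 in limma). Nab1, at 28.4 and 20.3 against 30.8 and 32.2 RPKM, was lower in both DKO-labelled libraries, with a log2 difference of -0.38 ± 0.18 (SE; adjusted p = 0.26 in limma).

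In WT hosts, where the antigen is absent, the genotypes were close. Limma called 0 of 5 members and 0.0605% of all genes, no member had an unadjusted p under 0.05 (7.89% of all genes did) or passed by the adjusted p alone (0.0692%), and voom called 0. The log2 difference of DKO-labelled minus OT-II cells was -0.14 ± 0.13 (SE) for Egr1, -0.14 ± 0.08 for Egr2 and -0.12 ± 0.08 for Nab2, with limma adjusted p values of 0.84, 0.71 and 0.80. For Egr3 it was 0.25 ± 0.35 and for Nab1 0.01 ± 0.17 (SE; limma adjusted p = 0.92 and 0.99). Egr2 alone did not overlap between genotypes here, as did not 20.8% of all genes.

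The difference between the host effects of both genotypes, the interaction, was tested directly and called for 0 of 5 members and 0.0173% of all genes in limma, with voom calling 0 members. Egr2 and Nab2 had an unadjusted p under 0.05 (2 of 5 members), against 9.32% of all genes. The host effect on Egr2 was higher in DKO-labelled than in OT-II cells by 0.48 ± 0.11 (SE) on the log2 scale (limma adjusted p = 0.33). The libraries of Egr2 separated by host in both genotypes, downwards in OT-II and upwards in DKO-labelled cells, as 3.94% of all genes did in opposite directions. For Nab2 the interaction was -0.33 ± 0.12 (SE; adjusted p = 0.51 in limma). A larger fall of Nab2 or a larger rise of Egr2 with the antigen in DKO-labelled than in OT-II cells was therefore not shown.

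As Egr2 and Nab2 went opposite ways in the same 2 libraries, their ratio within a library, which a single scaling factor per library cannot alter, was lower in them than in the other 7. In WT hosts, Nab2 over Egr2 was 1.86 and 2.14 for OT-II cells and 2.16, 1.91 and 2.04 for DKO-labelled cells. In OT-II libraries of RIPmOVA hosts it was 2.1 and 2. In DKO-labelled libraries of RIPmOVA hosts it was 1.13 and 1.23. The summed NAB level over the summed EGR level gave the same picture, at 0.586 and 0.502 in those libraries against 0.777 to 0.954 in the other 7. Nab2 over Nab1 did not set them apart, at 1.75 and 2.52 against 1.92 to 2.97. The ratio was chosen after its parts were seen and is given as a description without a test.

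**Figure D3:**
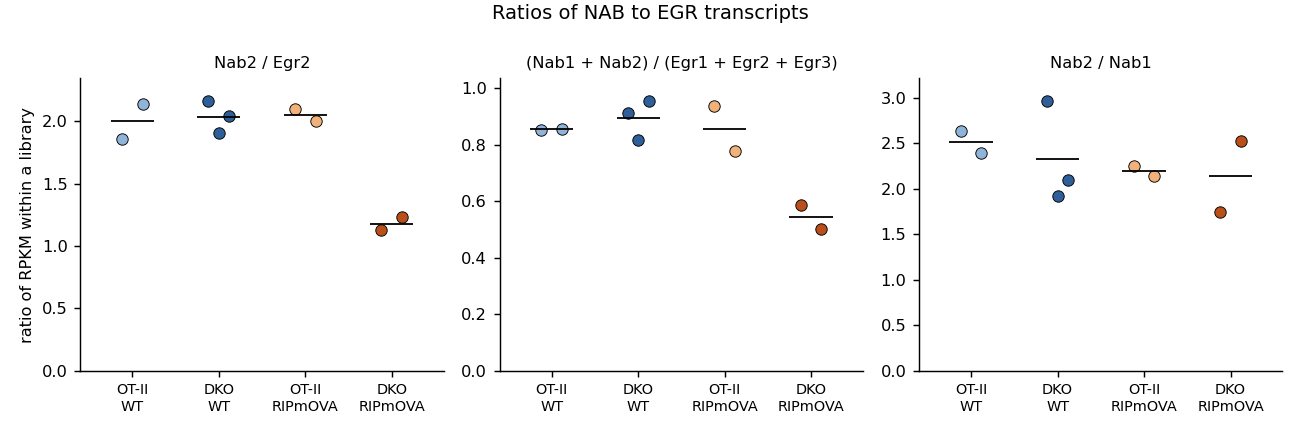
Ratios of RPKM within each library (points) with the group mean (line), for Nab2 over Egr2, for the summed NAB over the summed EGR genes and for Nab2 over Nab1, with y axes from 0. Mean Nab2 over Egr2 was 2, 2.04 and 2.05 in the first 3 groups and 1.18 in DKO-labelled libraries of RIPmOVA hosts.

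Reads on sensory receptor genes and the summed thymic epithelial markers moved with this contrast, and the part of those markers in it was not tested. In RIPmOVA hosts the receptor reads were at 553 and 295 RPM in OT-II and at 1047 and 1491 in DKO-labelled libraries. The WT-host libraries with most such reads, at 1141 in OT-II replicate 1 and 1055 in DKO-labelled replicate 2, lay above the lower but below the higher of these DKO-labelled libraries. They had Nab2 at 71.4 and 63.6 RPKM and Egr2 at 38.3 and 33.3 RPKM, outside the values of the DKO-labelled libraries of RIPmOVA hosts. With these reads as a covariate, the Nab2 difference between genotypes in RIPmOVA hosts was -0.35 (limma adjusted p = 0.53) and its host effect in DKO-labelled cells -0.36 (adjusted p = 0.26). The host effect on Egr2 in DKO-labelled cells was then 0.34 (adjusted p = 0.26). Without those WT-host libraries, a choice made after seeing the data, the host effect in DKO-labelled cells was -0.48 for Nab2 (limma adjusted p = 0.023) and 0.34 for Egr2 (adjusted p = 0.039).

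**Figure D4:**
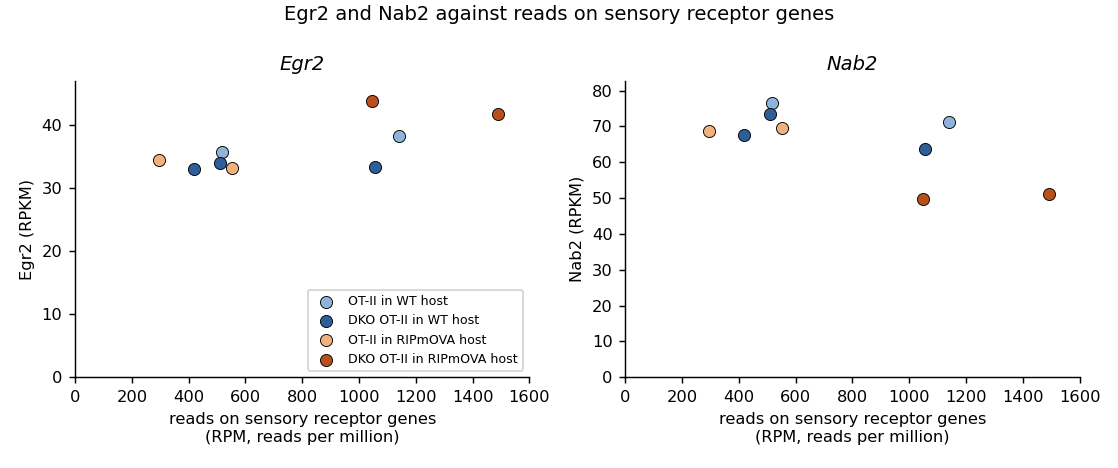
RPKM of Egr2 (left) and Nab2 (right) in each library against its level of sensory receptor reads (RPM), coloured by group. The 2 DKO-labelled libraries of RIPmOVA hosts (1047 and 1491 RPM) have Nab2 at 49.7 and 51.1 RPKM, below the WT-host libraries with 1055 and 1141 RPM (63.6 and 71.4 RPKM).

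Neighbouring genes bear on what the values of a member can hold, since the use of strand in counting is not given in the sources used here. Nab2 overlaps 3 genes on the opposite strand in the annotation, namely Stat6 by 40 bases, Nemp1 by 1668 bases and the antisense gene Gm16229 by 1646 bases. Reads from the shared bases cannot be told apart, so the level of Nab2 is uncertain by that part. Stat6, which encodes the transcription factor of interleukin-4 signalling, was at 82.3 ± 8.82 RPKM in the OT-II libraries of RIPmOVA hosts and at 86.2 ± 5.49 RPKM in the DKO-labelled ones (SD, n = 2 each), with a log2 fold change of 0.07 (limma adjusted p = 0.75). Nemp1 was at 3.55 to 4.2 RPKM on average in the 4 groups. The other 4 members overlap no annotated gene. Of the nearest protein-coding genes reported here, Reep2 and Pebp4 were below the filter, and Etf1, Nrbf2, Ado, Bin3 and Nemp2 had 0 calls in limma in the 5 comparisons. The lowest adjusted p among them was that of Etf1, the translation termination factor gene next to Egr1, at 0.11 for a log2 fold change of 0.31 between genotypes in RIPmOVA hosts. Beside Nab2, Lrp1 and Myo1a lay below the filter.

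Egr4, the remaining family member, did not reach the filter and was not tested. It had 0 and 1 reads in the OT-II libraries of WT hosts, 7, 4 and 6 reads in the DKO-labelled ones, 5 and 3 reads in OT-II and 23 and 16 reads in DKO-labelled libraries of RIPmOVA hosts. Its highest level was 0.523 RPKM, with an exact Poisson interval of 0.332 to 0.785 RPKM, and the 2 highest libraries were again those of DKO-labelled cells from RIPmOVA hosts. The share of all genes that were highest in these 2 libraries is not given here.

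Transcripts of the genes that lead to Egr transcription did not pass the test, and signalling through their proteins was not measured. Of 25 listed genes of the ERK cascade, SRF and its cofactors and CREB, 23 were tested, and limma called 0 in each of the 5 comparisons, as did voom. In the host effect of OT-II cells 2 had an unadjusted p under 0.05 (14.3% of all genes), with log2 fold changes over the list from -0.15 to 0.48 and a median of 0.10. In DKO-labelled cells 5 had one (17.6% of all genes), with a range from -0.53 to 0.51 and a median of -0.03. The count was 4 between genotypes in RIPmOVA hosts, 1 in WT hosts and 2 for the interaction, where 21.4%, 7.89% and 9.32% of all genes had one. The NuRD genes, through which NAB proteins repress, gave 0 calls of 13 tested in all 5 comparisons in limma and in voom. At an unadjusted p under 0.05 there were 3, 0, 1, 0 and 1 of them in the order of the comparisons above, beside the same shares of all genes, with medians of 0.04 and -0.14 for the host effects in OT-II and DKO-labelled cells.

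Several genes that are linked to EGR factors in T cells rose with the antigen. Of 22 listed, 19 were tested. The list was not split by whether EGR factors raise or lower a gene, so its counts do not measure EGR activity. In OT-II cells 5 were called higher with the antigen and 0 lower, where 1.05% and 0.173% of all genes were, with a list median of 0.45. By the adjusted p alone in limma, 6 were higher and 1 was lower, where 1.89% of all genes passed. Tnfrsf9, the gene of the costimulatory receptor 4-1BB, was at 3.46 to 6.28 RPKM in WT hosts and at 90.5 to 111 RPKM with the antigen. It rose by 4.28 ± 0.34 on the log2 scale (SE; limma adjusted p = 0.00079). Tbx21, which encodes T-bet, rose by 3.09 ± 0.32 (SE; adjusted p = 0.0021) and Nrgn, which encodes the calmodulin-binding neurogranin, by 1.82 ± 0.31 (SE; adjusted p = 0.023). In DKO-labelled cells 6 were called higher (1.52% of all genes) and 0 lower (0.156%), with Nrn1, the gene of the surface protein neuritin, at 3.81 ± 0.36 (SE), Tbx21 at 3.29 ± 0.29 and Tnfrsf9 at 2.82 ± 0.31 (limma adjusted p at most 0.0018). By the adjusted p alone, 7 were higher and 1 was lower in these cells, where 3.35% of all genes passed.

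Between genotypes in RIPmOVA hosts, 1 gene of this list was called higher and 2 lower, where 1.07% of all genes were called. Tnfrsf9 was lower in DKO-labelled cells, with a log2 difference of -3.49 ± 0.34 (SE; adjusted p = 0.0019 in limma), as was Nrgn at -2.40 ± 0.31 (SE; adjusted p = 0.0074), whereas Nrn1 was higher by 2.82 ± 0.40 (SE; adjusted p = 0.011). Nrgn rested on 10 and 9 reads in the DKO-labelled libraries of RIPmOVA hosts. The higher call was lost with the covariate for sensory receptor reads described above and without either OT-II library of RIPmOVA hosts. The lower calls became 1 with the chimera block, with a filter at 5 RPKM and without either OT-II library of RIPmOVA hosts. In WT hosts and for the interaction 0 were called in limma and voom, with 5 and 10 at an unadjusted p under 0.05, against 7.89% and 9.32% of all genes. The list counts in OT-II cells rested on single libraries, since without OT-II replicate 1 of WT hosts only 2 were called higher, and 3 without either OT-II library of RIPmOVA hosts.

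Some genes listed as other immediate-early genes or ERK feedback genes also rose with the antigen. The paper states that Nr4a2 and Nr4a3 are induced through NFAT alone, so not all listed genes answer the signals given above for EGR genes. Of 32 listed, 25 were tested. Of these 6 were called higher in OT-II and 8 in DKO-labelled cells, where 1.05% and 1.52% of all genes were, and 0 lower in either, where 0.173% and 0.156% were, with list medians of 0.33 and 0.38. In OT-II cells the largest were Nr4a2 at 3.13 ± 0.36 (SE), Nr4a3 at 2.90 ± 0.28 and Dusp4, a nuclear ERK phosphatase gene, at 2.63 ± 0.49 (limma adjusted p at most 0.031). In DKO-labelled cells they were Nr4a3 at 4.20 ± 0.26 (SE), Nr4a2 at 3.93 ± 0.33 and Spry1, an inhibitor of ERK signalling, at 3.78 ± 0.64 (limma adjusted p at most 0.014). Spry1 was uneven there, at 23.3 and 3.2 RPKM in DKO-labelled replicates 1 and 2 of RIPmOVA hosts. In DKO-labelled libraries of WT hosts it rested on 2 to 34 reads. Between genotypes in RIPmOVA hosts, Nr4a3 was the single call, and it was 1.63 ± 0.28 higher in DKO-labelled cells (SE; adjusted p = 0.024). This count was 0 with a pseudocount of 0.1, with a filter at 5 RPKM, with the covariate, and without either OT-II library or without DKO-labelled replicate 1 of RIPmOVA hosts. It was 2 with no filter, with only the libraries compared, with voom and without DKO-labelled replicate 1 of WT hosts. In WT hosts and for the interaction 0 were called in limma and voom, with 4 and 5 at an unadjusted p under 0.05, against 7.89% and 9.32% of all genes. Without OT-II replicate 1 of RIPmOVA hosts 2 were called higher in OT-II cells, and without DKO-labelled replicate 1 of RIPmOVA hosts 5 in DKO-labelled cells. These lists were put together with earlier results of these libraries known, so that their counts are a description. The libraries of each genotype in RIPmOVA hosts enter both a host and a genotype comparison.

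**Figure D5:**
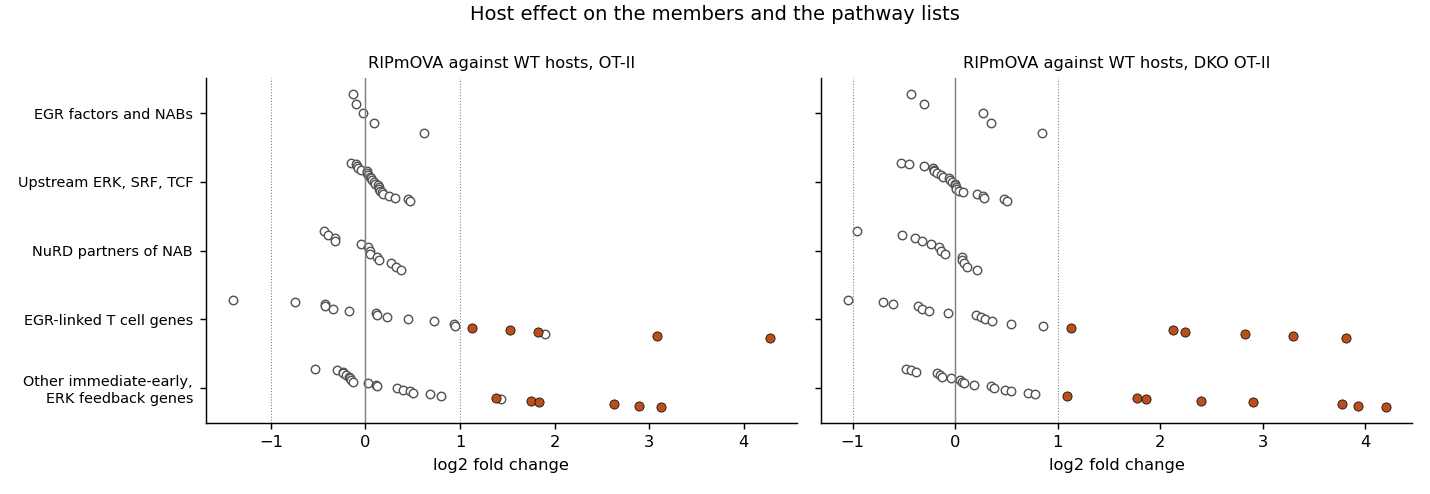
Log2 fold change of RIPmOVA against WT hosts for each tested gene (circles) of the members and 4 lists, in OT-II (left) and DKO-labelled cells (right). Filled circles were called, and dotted lines mark -1 and 1. The members lie between -0.13 and 0.62 in OT-II cells, whereas EGR-linked genes reach 4.28 and other immediate-early genes 3.13.

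The genes whose pattern over the 9 libraries was most like that of each member were found by Pearson's r of log2(RPKM + 0.5), which is a description, as libraries of a group share host and genotype. For Egr1 they were Nim1k (r of 0.938), Cep120 (0.925) and Jrk (0.911). Those most like Egr2 were Aig1 (0.968), Dpp4, the gene of the peptidase CD26 (0.964), and the ubiquitin ligase gene Rnf19a (0.951), of which Rnf19a ranged from 23.7 to 66.8 RPKM. Egr3 was most like Washc5 (0.974), Rab3gap2 (0.951) and G6pc3 (0.943). The genes next to Nab1 by this measure were Fam102b (0.957), Crebzf (0.935) and Mir7671 (0.925). Nab2 was most like the myosin light chain gene Mylpf (0.974), the phosphatase gene Ptp4a3 (0.971) and Dexi (0.957). Among the members themselves, Egr2 and Nab2 were the most opposed pair over 9 libraries, with an r of -0.766, but it was 0.519 over the 7 without DKO-labelled cells from RIPmOVA hosts, so that their opposition rested on that group. Over 9 libraries Egr1 and Egr3 were the most alike, with an r of 0.695.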

How the data were processed

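SMART-seq cDNA and Nextera XT libraries were made by the authors, who aligned the paired reads to mm10 with STAR, dropped duplicates and counted exonic reads per gene. The authors deposited RPKM, scaled by exon length and by the library's exonic reads. For 73.9% of 17927 genes with overlapping exons, that length equalled the sum over all distinct exons, with overlaps counted more than once, which affects levels between genes but not between libraries. Strand use and the versions of the aligner and duplicate remover are not given in the sources used here. The authors' own tests used DESeq2.

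Reads per library were recovered from the steps of the RPKM values, and in each library 100% of the 2584 to 3362 short, low genes checked came out whole, to within 0.02 reads beyond the rounding of the deposited values. Values were fitted as log2(RPKM + 0.5) with limma 3.58.1 in R 4.3.3 (group means over all 9 libraries, intensity trend) for the 11569 genes that reached 1 RPKM in 2 or more libraries. Calls needed a Benjamini-Hochberg adjusted p, over all these genes, not above 0.05 and a log2 fold change of 1 or more in size. Log2 fold changes understate the change of low genes because of the pseudocount. The fit was tested on simulated data. Python 3.11.15 with pandas 2.3.3 was used for the rest.

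The 5 members and the lists were chosen with earlier results of these data known. Genes were named if they were members, Egr4, genes overlapping or next to a member, the 3 genes most like each member, up to 3 called genes per direction, list and comparison, or Nr4a1 and Nr4a3. A gene that this rule names is not reported here. Same-numbered libraries of a host type came from the same chimera per the labels. The main fit did not use this pairing by animal, which entered only the alternatives blocked by chimera. The deviations of such pairs from their group means correlated at 0.006 and -0.24 in WT hosts and at -0.079 in RIPmOVA hosts. Both pairs of RIPmOVA hosts give the same value, since each group there held 2 libraries. Libraries of a group came from different animals. Alternatives were 2 other pseudocounts, no filter and a filter at 5 RPKM, 2 other scalings, other variance models, voom on the recovered reads, a covariate for reads on sensory receptor genes, blocks, and leaving out each library in turn. An exact permutation test of so few libraries cannot pass 0.05 and was not used. Read numbers carry no molecular identifiers and intervals made from them cover counting error only.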

Additional observations from a re-analysis of the deposited data

Results flagged for a closer look

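The host effect on Egr2 stood out because all OT-II libraries moved one way and all DKO-labelled libraries the other. In OT-II cells both RIPmOVA libraries (33.1 and 34.4 RPKM) lay below both WT-host libraries (38.3 and 35.8 RPKM), and in DKO-labelled cells both RIPmOVA libraries (43.8 and 41.7 RPKM) lay above all 3 WT-host libraries (34, 33.3 and 33.1 RPKM). Of all genes tested, 3.94% showed such opposite separations. The difference between the host effects was 0.479 on the log2 scale, with an unadjusted p of 0.002 and an adjusted p of 0.33 in limma. Its adjusted p ranged from 0.068 to 1 over 21 alternatives, with the same direction in each.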

How the results depend on the processing

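Of the members' log2 fold changes under the alternatives, 531 kept their direction and their side of the call, 4 passed it and 20 changed direction, all of differences that were not called. By the adjusted p alone, 2 members were called for the host effect in DKO-labelled cells (Egr2 and Nab2) and 1 between genotypes in RIPmOVA hosts (Nab2). Leaving out each library in turn called 0 to 1 member for the host effect in OT-II cells (Egr3, 1.28, without OT-II replicate 2 of WT hosts) and 0 in the other comparisons. Blocking by chimera called 0 members and gave the Nab2 difference in RIPmOVA hosts an adjusted p of 0.096, and it changed no other call of a member. A block by number across hosts, where the numbers name different animals, also called 0 members, and moved the calls over all genes from 142 to 78 in OT-II and from 194 to 110 in DKO-labelled cells.

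Changes of direction were as follows. For the host effect in OT-II cells, Egr1 was 0.0393 with median-of-ratios scaling, 0.0234 with quantile normalization and -0.20 to 0.155 leaving out 1 library, while Egr3 (-0.0454 to 1.28) and Nab1 (-0.0256 to 0.215) changed without OT-II replicate 1 of WT hosts. Between genotypes in RIPmOVA hosts, Egr1 was -0.0787 with median-of-ratios scaling and -0.0227 to 0.332 leaving out 1 library. Between genotypes in WT hosts, Nab1 was -0.01 with the covariate, -0.041 with the chimera block and -0.105 to 0.145 leaving out 1 library, and Egr3 was -0.408 to 0.913. Egr3 in the interaction was -0.427 to 0.894. Without the WT-host library of each genotype with most sensory receptor reads, chosen after seeing the data, the host effect in OT-II cells was -0.0454 for Egr3 and -0.0256 for Nab1, and the genotype effect in WT hosts -0.535 and -0.181. Where 1 library was left in a group, it was assumed to vary like the others.

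Median-of-ratios scaling moved the median of all genes to -0.13 for the host effect in DKO-labelled cells and to -0.17 between genotypes in RIPmOVA hosts. Relative to that median, Egr2 was 0.31 and Nab2 -0.47 in the former, and 0.27 and -0.52 in the latter. All-gene calls between genotypes in RIPmOVA hosts were 124, and 18 with the covariate, 81 with the filter at 5 RPKM, 201 to 220 with the other scalings or only the libraries compared, and 585 without those WT-host libraries. For the host effects they were 142 and 194, 83 and 87 with the covariate and 61 and 565 without those libraries, and in OT-II cells 31 with only the libraries compared. In WT hosts they were 7 between genotypes, with 2 to 100 over the alternatives, and for the interaction 2, with 0 to 159. Leaving out 1 library gave 50 to 296 calls for the host effect in OT-II cells, 98 to 259 in DKO-labelled cells, 21 to 217 between genotypes in RIPmOVA hosts, 5 to 100 in WT hosts and 0 to 159 for the interaction. The cause of these shifts was not tested. With only the libraries compared, EGR-linked and other immediate-early genes called higher in OT-II cells were 2 and 0, and 3 and 1 without those WT-host libraries. Low read numbers limit Egr3 (125 to 734 reads per library) and Egr4 (0 to 23).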
